A study of Mus musculus with 4 samples.

Results

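The cadherin superfamily genes described here were the mouse cadherins named Cdh with a number (without Cdh5 and Cdh19), the protocadherins outside the gene clusters, and the FAT, DCHS and CELSR genes. They were chosen by symbol alone, among protein-coding genes, and 34 of the 32948 genes in the table met the rule. Another 8 symbols of the same pattern were not analysed here. Cells came from the ascending part of the aorta and from its arch, in mice carrying Wnt1-Cre and Rosa26-mTmG. In such animals all cells make membrane-bound tdTomato until Cre recombinase has acted, and from then on a cell and its progeny make membrane-bound GFP. Cre is driven by Wnt1 regulatory sequence, which is active in the embryonic neural crest, so GFP marks cells with a history of Wnt1-Cre and tdTomato marks all others. The 4 libraries were female GFP (1 sample), male GFP (a pool of 2 samples), female tdTomato (1 sample) and male tdTomato (a pool of 2 samples), the tdTomato libraries coming from the same suspensions as their GFP partners. All groups carried both alleles and the labels gave no age and no treatment. No combination of sex and colour was replicated, and the labels do not say how many animals made up a sample.

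Cadherins are calcium-dependent adhesion proteins of the cell surface. Classical cadherins, of type I and type II, bind the same or related cadherins on the neighbouring cell and are anchored to actin through catenins. Protocadherins lack the catenin-binding tail. FAT and DCHS proteins are giant cadherins that bind each other across cell borders, and CELSR proteins are cadherins built into a G protein-coupled receptor that align cells within a tissue plane. In blood vessels smooth muscle cells are known for N-cadherin (Cdh2) and T-cadherin (Cdh13), endothelium for VE-cadherin (Cdh5) and fibroblasts for Cdh11.

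Estimated counts summed to 13678806 in female GFP, 10094326 in male GFP, 13911281 in female tdTomato and 12837282 in male tdTomato. Levels are given as CPM, which scale each library's counts to a common total after TMM normalization, and 3 counts were worth 0.238, 0.319, 0.201 and 0.216 CPM in the same order. A count of 0 allows a level up to that value by counting error alone. Both GFP libraries detected fewer genes (12008 and 9517 at 10 counts or more, against 16227 and 15669 in tdTomato). The libraries were labelled vascular smooth muscle cells, and 7 of 7 smooth muscle markers were present in each, summing to 16569 and 13970 CPM in female and male GFP and 12658 and 12047 CPM in female and male tdTomato. Markers of other cells were also present. The 8 endothelial markers summed to 15.8 and 12.7 CPM in the GFP pair and 385 and 237 CPM in the tdTomato pair, and the 6 fibroblast markers to 2952 and 263 CPM in the GFP pair and 2646 and 3117 CPM in the tdTomato pair. In such bulk samples, fewer cells of a type and less RNA per cell cannot be told apart.

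Of the 34 genes, 16 reached 5 CPM in at least 1 library, as did 14214 of the 32948 genes in the table. The other 18 members stayed at or below 1.37 CPM in all 4 libraries. The transcripts present were dominated by the protocadherin Pcdh7, the giant cadherin Fat1, the type II cadherin Cdh6 and the T-cadherin Cdh13, the only members with at least 10 counts in every library. Together they made up 91.4% and 83.2% of all member CPM in female and male GFP, and 94.3% and 94.3% in female and male tdTomato. Summed over all members, the level was 641 and 2035 CPM in the GFP pair against 1609 and 1110 CPM in the tdTomato pair. Exons of Pcdh7, Fat1, Fat4, Pcdh19, Dchs1 and Dchs2 overlap annotated antisense genes, whose reads cannot be told apart from theirs with this unstranded kit. Members at 0 counts numbered 21 and 14 in GFP and 14 and 14 in tdTomato, and the share of all genes at 0 was not counted.

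**Figure D1:**
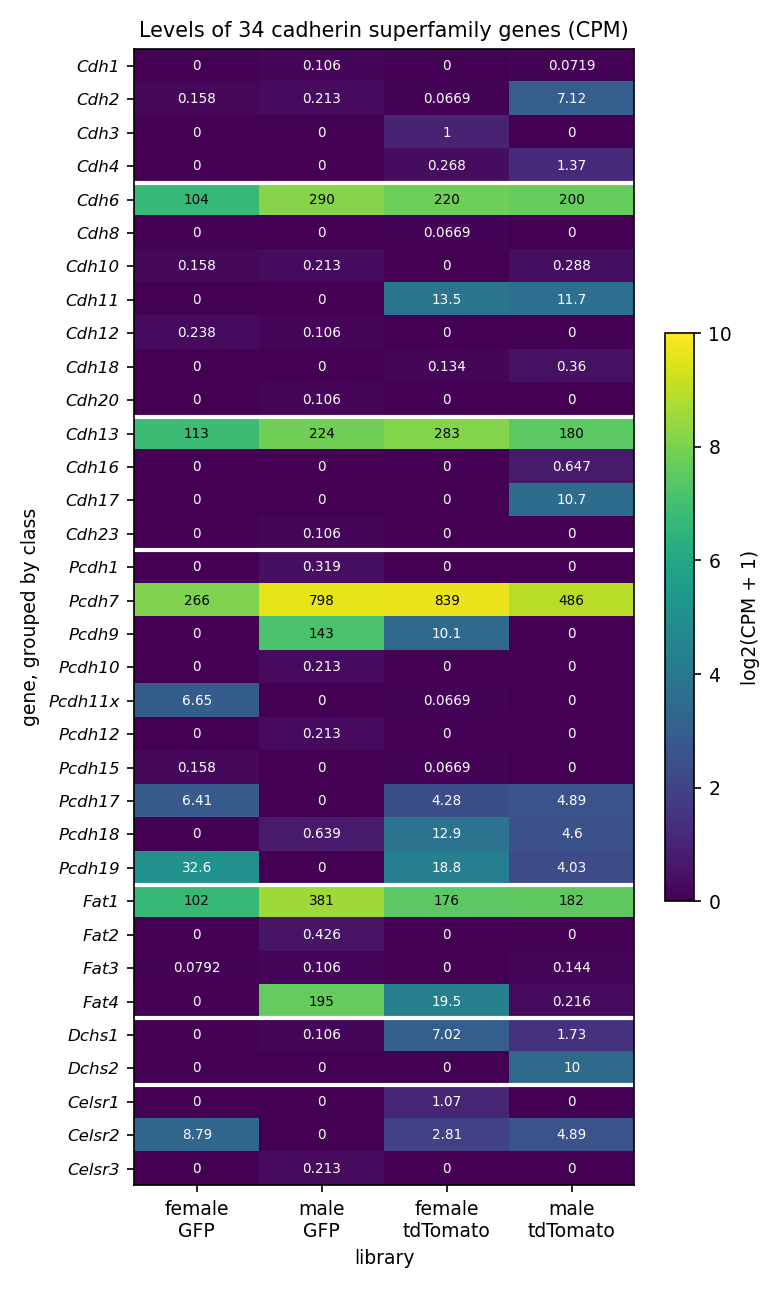
Level of each of the 34 genes (rows, grouped by class with white lines between classes) in each of the 4 libraries (columns), printed in CPM and coloured by log2(CPM + 1), where 0 means no count. Pcdh7, Fat1, Cdh6 and Cdh13 stand at 102 CPM or more in all 4 libraries, and most other rows are at or near 0 in at least 1.

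Pcdh7, a protocadherin best known from the nervous system and heart, was the most abundant member. Female and male GFP held 266 and 798 CPM, against 839 and 486 CPM in female and male tdTomato. Male GFP and female tdTomato were thus high and female GFP was the lowest library, so the colours overlapped. In the female suspension Pcdh7 was 3.15-fold lower in GFP than in tdTomato (95% counting interval 3.03 to 3.27), and in the male suspension it was 1.64-fold higher (1.59 to 1.70). On the log2 scale GFP over tdTomato averaged -0.47 ± 1.68 (SD, n = 2 pairs), with an adjusted p of 1.0 (edgeR, quasi-likelihood, Benjamini-Hochberg over all tested genes). The smallest adjusted p that edgeR gave any gene between the colours was 0.577, so a gene not called is not thereby shown to be equal.

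Cdh6, a type II cadherin of kidney and neural tissue that is also made by migrating neural crest, measured 104 and 290 CPM in the GFP pair, against 220 and 200 CPM in the tdTomato pair. Female GFP was again the lowest library, but male GFP was the highest, with the tdTomato libraries between them. Its level was 2.12-fold lower in female GFP than in female tdTomato (interval 1.99 to 2.26) and 1.45-fold higher in male GFP than in male tdTomato (1.38 to 1.53). The mean log2 ratio was -0.27 ± 1.15 (SD, n = 2 pairs; edgeR adjusted p = 1.0).

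Cdh13 encodes T-cadherin, which is held to the membrane by a lipid anchor, lacks a cytoplasmic tail and binds adiponectin and low-density lipoprotein. Its level was 113 and 224 CPM in the GFP pair and 283 and 180 CPM in the tdTomato pair. The library order was that of Pcdh7, with female tdTomato highest and female GFP lowest. Cdh13 was 2.50-fold lower in female GFP (interval 2.35 to 2.65) and 1.25-fold higher in male GFP (1.18 to 1.32) than in the tdTomato library of the same suspension. Its mean log2 ratio was -0.50 ± 1.16 (SD, n = 2 pairs; edgeR adjusted p = 1.0).

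Fat1, the member of the FAT family with the widest expression, regulates actin at cell borders and restrains smooth muscle growth in injured arteries. It measured 102 and 381 CPM in the GFP pair, against 176 and 182 CPM in the tdTomato pair. The tdTomato libraries lay close together and both GFP libraries lay outside them, on opposite sides. Fat1 was 1.72-fold lower in female GFP (interval 1.61 to 1.84) and 2.09-fold higher in male GFP (1.99 to 2.20). The mean log2 ratio was 0.14 ± 1.31 (SD, n = 2 pairs; edgeR adjusted p = 1.0), and it became -0.077 with scaling to library totals alone. For all 4 genes the intervals of both suspensions excluded equal levels, but in opposite directions, and the spread between the pairs was larger than their mean.

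**Figure D2:**
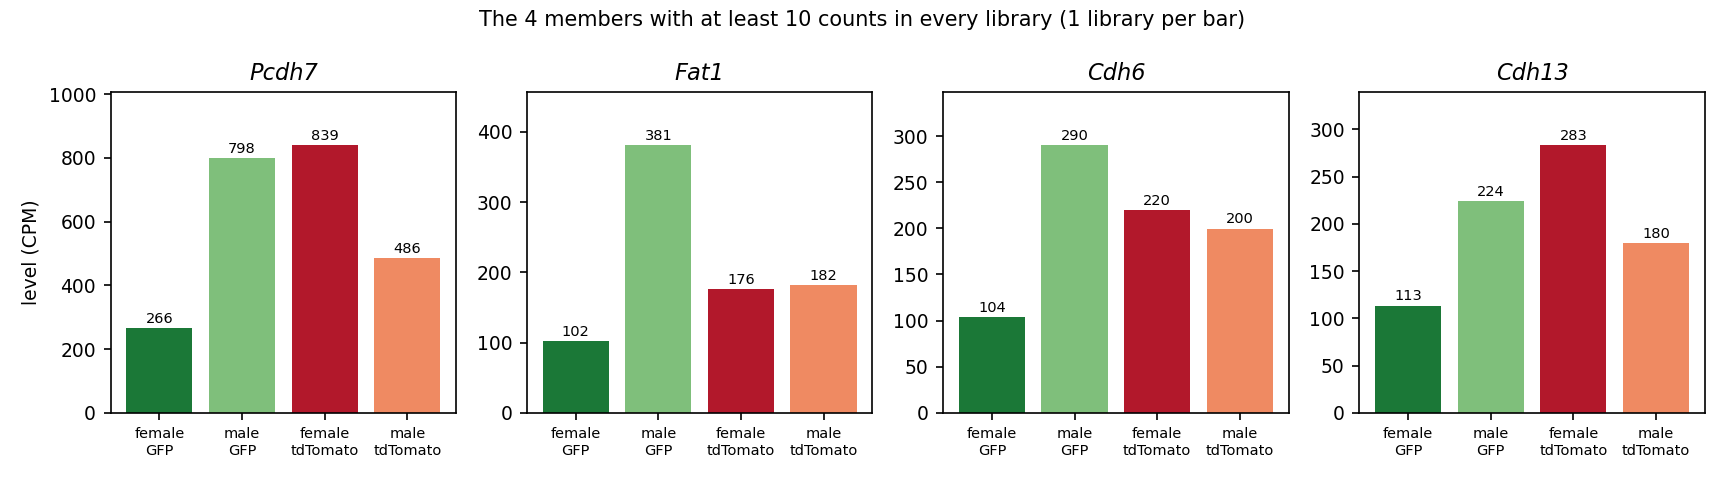
Level in CPM (vertical axes start at 0) of the 4 members with at least 10 counts in every library, with 1 bar per library and no replicates. Female GFP is the lowest bar in each panel, and male GFP is the highest for Fat1 (381 CPM) and Cdh6 (290 CPM).

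Levels of different genes can be compared only per length, here as CPM per kilobase of the longest annotated coding transcript. On that scale the order was Pcdh7, Cdh13, Cdh6 and Fat1 in each of the 4 libraries. Per kilobase, Pcdh7 stood at 30.3 and 90.9 in female and male GFP and 95.5 and 55.3 in female and male tdTomato. Cdh13 stood at 29.96 and 59.3 in GFP and 74.8 and 47.5 in tdTomato, so that Pcdh7 and Cdh13 were nearly level in female GFP. Cdh6 stood at 12.7 and 35.5 in GFP and 26.9 and 24.4 in tdTomato, and Fat1, whose transcript is 14.8 kilobases long, at 6.90 and 25.7 in GFP and 11.9 and 12.3 in tdTomato. Across the libraries the ranges of neighbours in this order overlapped. With oligo(dT) priming, long transcripts may be covered in part only, which was not tested.

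The promoters of Pcdh7 and Cdh6, 2 genes abundant in every library, are shown. Both had an entry in the RefSeq promoter table (GRCm38.p6), which held 21 of the 34 members. Fat1 had an entry too, but it was left out because its annotated start may be internal to the gene. Each run is the 250 bases before the annotated start, read 5′ to 3′ on the gene's strand. The window of Pcdh7 is chr5:57717831-57718080 on the + strand, and that of Cdh6 is chr15:13173676-13173925 on the - strand.
Pcdh7: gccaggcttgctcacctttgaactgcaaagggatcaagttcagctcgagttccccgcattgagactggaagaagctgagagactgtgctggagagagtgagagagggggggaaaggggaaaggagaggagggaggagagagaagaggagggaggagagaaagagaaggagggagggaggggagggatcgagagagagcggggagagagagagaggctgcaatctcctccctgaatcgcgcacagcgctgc
Cdh6: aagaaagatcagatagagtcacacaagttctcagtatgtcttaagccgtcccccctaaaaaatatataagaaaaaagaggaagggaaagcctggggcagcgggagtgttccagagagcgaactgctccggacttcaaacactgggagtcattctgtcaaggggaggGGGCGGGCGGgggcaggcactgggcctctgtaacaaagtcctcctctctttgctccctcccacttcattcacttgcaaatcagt
Capitals mark matches, on either strand, to any of 5 motifs: the GC box GGGCGG, the AP-1 site TGANTCA, the TEAD site CATTCC, the TATA box TATAAA and the CArG box of serum response factor. Cdh6 held 2 overlapping GC boxes, and Pcdh7 held no match to these letters. Of 32851 promoter windows of the same length, 32.7% held a GC box, 6.75% an AP-1 site, 12.6% a TEAD site, 12.4% a TATA box and 1.47% a CArG box. Such a match is a run of letters and not a measured binding site. The windows were 58.4% G and C with 7 CpG dinucleotides for Pcdh7 and 51.2% with 6 for Cdh6, against medians of 52.4% and 6.

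Classical cadherins other than Cdh6 were scarce. Among type I cadherins, Cdh2, the N-cadherin of neurons, heart and smooth muscle, had 2 counts in each GFP library, 1 count in female tdTomato and 99 counts (7.12 CPM) in male tdTomato. Thus N-cadherin stood above 3 counts in 1 library only, whereas the smooth muscle markers were abundant in all 4. Cdh1 (E-cadherin), Cdh3 (P-cadherin) and Cdh4 (R-cadherin) stayed at or below 1.37 CPM. Of the type II cadherins, Cdh8, Cdh10, Cdh12, Cdh18 and Cdh20, genes mainly of the nervous system, stayed at or below 0.36 CPM.

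Cdh11, the type II cadherin of mesenchyme and fibroblasts, was detected in one colour only. No count fell on it in either GFP library, against 13.5 CPM in female tdTomato and 11.7 CPM in male tdTomato (202 and 163 counts). The colours did not overlap and the tdTomato libraries lay close together. How many of all genes had colours that did not overlap was not counted. Against 3 counts in the GFP library, Cdh11 was at least 56.9-fold lower in GFP in the female suspension and at least 36.7-fold lower in the male one. Its mean log2 ratio with a prior count of 2 was -6.34 ± 0.14 (SD, n = 2 pairs), a value that depends on the prior count. Since both GFP libraries had no count, this SD reflects the tdTomato libraries alone. edgeR gave an adjusted p of 0.577, the smallest it gave any tested gene between the colours. DESeq2 on the same pairs gave an adjusted p of 0.0113. DESeq2 called 1 member lower in GFP, Cdh11, against 7.8% of all 15055 tested genes, and 0 members higher, against 0.279%. edgeR called 0 genes (0%). With an unadjusted p under 0.05, edgeR had 1 member, Cdh11, and 8.33% of all tested genes lower in GFP. Of the 5 members that reached 10 CPM in each tdTomato library, Cdh11 was the 1 with no count in either GFP library, which held for 3.08% of all such genes.

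Beside Cdh11, GFP was at least 2-fold lower in both suspensions for 8 of 8 endothelial markers, 3 of 4 tested macrophage markers and 2 of 6 fibroblast markers (Pdgfra and Col14a1), against 22.9% of all tested genes. Pdgfra, the fibroblast PDGF receptor, was at 0 in female GFP and at 0.426 CPM (4 counts) in male GFP, against 68.6 and 61.9 CPM in the tdTomato pair. The fibroblast list differed between the suspensions, with median log2 ratios of -0.58 in the female and -5.3 in the male one. Dcn measured 2134 CPM in female GFP against 1920 CPM in female tdTomato, and Lum 715 CPM against 447 CPM. In the male suspension Dcn measured 153 CPM in GFP against 2236 CPM in tdTomato, and Lum 2.77 CPM against 390 CPM. Pi16 was higher in male GFP (88.4 CPM) than in male tdTomato (61.4 CPM). Cdh11 was at 0 in both GFP libraries. Of the 6 fibroblast markers, 1 was at 0 in each GFP library (Pdgfra in female GFP and Dpt in male GFP) and none in tdTomato. Of the 8 endothelial markers, 1 was at 0 in female GFP (Kdr) and 6 in male GFP, Cdh5 and Tek among them. The 5 macrophage markers in the table summed to 6.57 and 0.532 CPM in the GFP pair and 15.98 and 119 CPM in the tdTomato pair, with Mrc1 and Cd68 at 0 in both GFP libraries. The part of these cells in the Cdh11 difference was not tested.

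Pcdh18 and Dchs1 were the other tested members for which GFP was lower by 2-fold or more in each suspension (log2 ratios with a prior count of 2). Pcdh18, a protocadherin of mesenchyme, had no count in female GFP and only 6 counts (0.639 CPM) in the male GFP library, against 12.9 and 4.60 CPM in the tdTomato pair. It was at least 54.3-fold lower in GFP in the female suspension and 7.21-fold lower in the male one (interval 3.14 to 20.4), with an edgeR adjusted p of 0.919. Dchs1, the ligand of Fat4, had 0 counts in female GFP and 1 count in male GFP, against 7.02 and 1.73 CPM in the tdTomato pair. Its difference was at least 29.6-fold in the female suspension and 16.2-fold in the male one (interval 2.64 to 667), and its edgeR adjusted p was 0.585. In both genes every tdTomato library lay above every GFP library, a trait whose share over all genes was not counted. With Cdh11, these were 3 of 12 members that passed the filter on low counts, against 22.9% of all tested genes, so the share of members was near the background. Without the filter they were 4 of 34, the further one being Cdh4, with 0 counts in both GFP libraries against 4 and 19 counts in female and male tdTomato. The share over all genes was counted with the filter only, so the unfiltered count has no background beside it. For 0 of the 12 was GFP higher by 2-fold or more in each suspension, against 5.17% of all tested genes. A gene near 0 in one colour passes the filter through the other, so such counts describe the members and carry no test.

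Among the tested members, Fat4 and Pcdh9 had the widest disagreement between the suspensions. Fat4 is the giant cadherin that binds Dchs1 and guides oriented growth of kidney, bone and lymphatic vessels. Female GFP had no count of it and male GFP 195 CPM (1835 counts), against 19.5 CPM in female tdTomato and 0.216 CPM in male tdTomato (3 counts). The high libraries were therefore the GFP one of the male suspension and the tdTomato one of the female suspension, and the colours overlapped fully. GFP was at least 81.9-fold lower than tdTomato in the female suspension and 905-fold higher in the male one (interval 309 to 4394). Its mean log2 ratio was 1.03 ± 11.3 (SD, n = 2 pairs; edgeR adjusted p = 1.0). In male tdTomato Dchs1 had 24 counts and Fat4 3 counts, and in male GFP Dchs1 had 1 count and Fat4 1835 counts. Female tdTomato was the only library with both above 3 counts.

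Pcdh9, a protocadherin best known from the brain, followed the same libraries as Fat4. Its level was 0 in female GFP and 143 CPM (1346 counts) in male GFP, against 10.1 CPM in female tdTomato and 0 counts in male tdTomato. In the female suspension GFP was at least 42.5-fold lower, and in the male suspension at least 664-fold higher. The log2 ratios averaged 1.90 ± 11.2 (SD, n = 2 pairs; edgeR adjusted p = 1.0). The ratios of Fat4 and Pcdh9 rest on 0 or 3 counts in their low libraries. The coefficient fitted by limma-voom was -1.63 for Pcdh9 and -3.99 for Fat4, against 1.94 and 0.92 in edgeR, so the direction between the colours depended on the tool. The 5 pericyte markers summed to 546 and 2146 CPM in the GFP pair and 829 and 595 CPM in the tdTomato pair. Of the 2146 CPM, Rgs5 gave 1690. Rgs5, Kcnj8 and Cspg4 were highest in male GFP, whereas Abcc9 was lower there (95.9 CPM) than in tdTomato (149.6 and 133.9 CPM) and Notch3 was at 0 in both GFP libraries. Their part in the levels of Fat4 and Pcdh9 was not tested.

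The promoter windows of Fat4 and Pcdh9 are shown as those of the 2 genes with this shared pattern. They lie at chr3:38886690-38886939 on the + strand and chr14:93890680-93890929 on the - strand (RefSeq, GRCm38.p6), and Pcdh9 has 2 entries, of which 1 is shown.
Fat4: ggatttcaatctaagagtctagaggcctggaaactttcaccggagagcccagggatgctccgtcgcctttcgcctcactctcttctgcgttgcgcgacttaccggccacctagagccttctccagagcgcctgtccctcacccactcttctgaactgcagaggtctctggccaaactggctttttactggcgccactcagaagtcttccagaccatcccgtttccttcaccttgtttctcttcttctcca
Pcdh9: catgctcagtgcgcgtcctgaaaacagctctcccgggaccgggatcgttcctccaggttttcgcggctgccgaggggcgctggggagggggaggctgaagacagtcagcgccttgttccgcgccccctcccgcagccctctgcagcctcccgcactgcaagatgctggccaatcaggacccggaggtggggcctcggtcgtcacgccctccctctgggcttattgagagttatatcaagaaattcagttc
Neither window held a match to the 5 motifs, and so neither has capitals. Pcdh9 had 18 CpG dinucleotides at 63.6% G and C, and Fat4 had 11 at 54.8%, both above the medians of all windows.

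**Figure D3:**
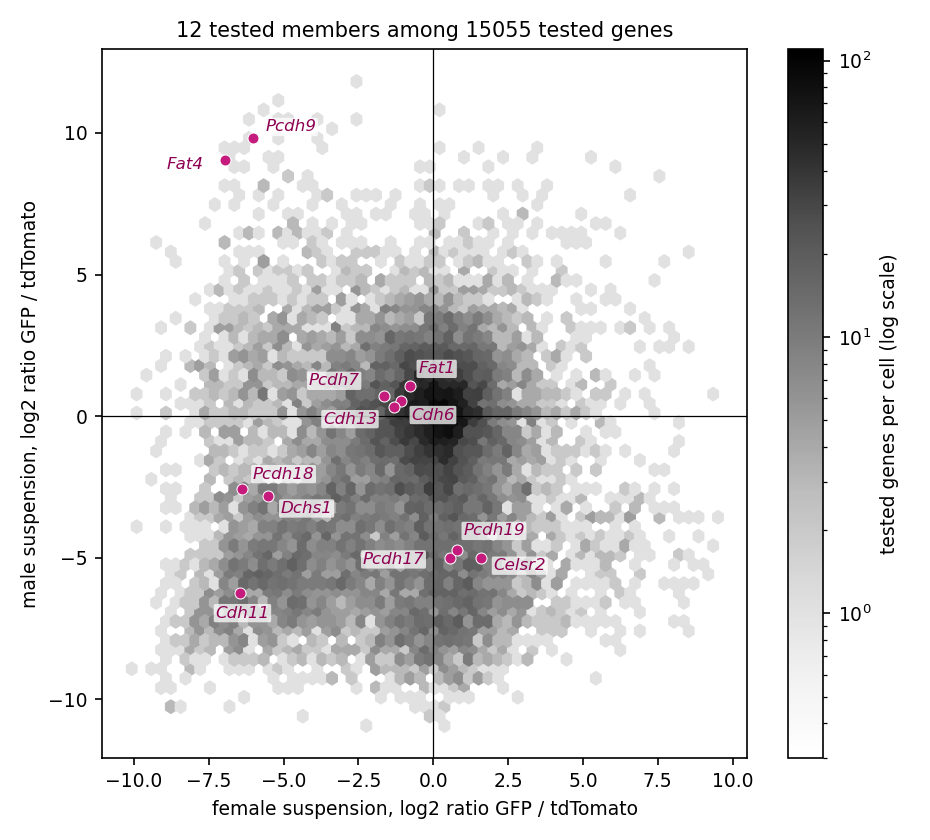
Log2 ratio of GFP over tdTomato (prior count of 2) in the female suspension (horizontal) and the male suspension (vertical) for the 12 tested members (points), over all 15055 tested genes (grey cells, darker where more genes lie). Cdh11, Pcdh18 and Dchs1 lie at the lower left, and Fat4 (-6.96 and 9.03) and Pcdh9 (-6.03 and 9.83) at the upper left edge of the cloud.

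Pcdh19, Pcdh17 and Celsr2 were present in every library but male GFP. Pcdh19, an X-linked protocadherin that binds N-cadherin, had 32.6 CPM in female GFP and no count in male GFP, against 18.8 and 4.03 CPM in female and male tdTomato. GFP was 1.74-fold higher in the female suspension (interval 1.49 to 2.03) and at least 12.6-fold lower in the male one. The log2 ratios averaged -1.97 ± 3.91 (SD, n = 2 pairs; edgeR adjusted p = 1.0). Pcdh17, a protocadherin of synapses, had 6.41 CPM in female GFP and no count in male GFP, against 4.28 and 4.89 CPM in the tdTomato pair. Celsr2, a receptor of planar cell polarity, had 8.79 CPM in female GFP and no count in male GFP, against 2.81 and 4.89 CPM in the tdTomato pair. Celsr2 was 3.13-fold higher in female GFP than in female tdTomato (interval 2.18 to 4.58) and, in the male suspension, at least 15.3-fold lower in GFP. With Fat4 and Pcdh9 it made up the 3 of 12 tested members at least 2-fold apart in opposite directions, against 19.2% of all tested genes, again a share near the background. Celsr1 and Celsr3 reached at most 1.07 CPM.

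Of the 16 members at 5 CPM in some library, 4 exceeded 3 counts in 1 library only. In male tdTomato these were Cdh2, Cdh17, the intestinal cadherin of epithelium, at 10.7 CPM, and Dchs2, the relative of Dchs1, at 9.999 CPM. Cdh17 and Dchs2 had 0 counts in the other 3 libraries. Ptprc, the leukocyte marker CD45, was likewise near 0 in the other 3 libraries and at 65.4 CPM in male tdTomato. Other macrophage markers were not confined to that library. Mrc1, Csf1r and C1qa measured 27.9, 19.2 and 5.25 CPM in male tdTomato and 1.81, 4.75 and 2.41 CPM in female tdTomato. Csf1r also stood at 6.41 CPM in female GFP. Cd68 was higher in female tdTomato (7.02 CPM) than in male tdTomato (1.44 CPM). Pcdh11x, an X-linked protocadherin, was at 6.65 CPM in female GFP with 1 count in female tdTomato and 0 in both male libraries. Female GFP alone also held Cdh19, the Schwann cell cadherin left out by the rule, which had 1641 counts there and 0 in the other 3. The 5 Schwann markers in the table summed to 257 and 109 CPM in GFP and 8.23 and 11.7 CPM in tdTomato. Sox10 was at 0 or 1 count throughout. The 4 melanocyte markers summed to 212 and 133 CPM in the GFP pair and 73.2 and 58.6 CPM in the tdTomato pair. Nearly all of this came from Dct and Tyr, since Pmel and Tyrp1 had 3 counts or fewer in each library. Tyr was level in the male suspension, at 19.1 CPM in GFP and 18.6 CPM in tdTomato. The 3 epithelial markers in the table summed to 45.7 and 0.106 CPM in the GFP pair and 2.47 and 8.99 CPM in the tdTomato pair, of which Krt18 gave 45.7 CPM to female GFP and 8.92 CPM to male tdTomato, with Epcam and Krt19 at 0 or 1 count. The part of the cells these markers stand for in the levels of Cdh2, Cdh17, Dchs2 and Pcdh11x was not tested. Among the members below 5 CPM, Cdh16 and Cdh23 reached at most 0.647 CPM, Fat2 and Fat3 at most 0.426 CPM, and Pcdh1, Pcdh10, Pcdh12 and Pcdh15 at most 0.319 CPM.

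Presence in some libraries and near absence in others was common to most members. Of the 16 at 5 CPM or more in some library, 8 had 3 counts or fewer in female GFP, against 23.9% of all 14214 genes at that level, and 9 in male GFP, against 38.2%. In female and male tdTomato it was 4 and 3 of 16, against 7.73% and 8.96% of all such genes. Only the 4 abundant members exceeded 3 counts in every library, against 52.3% of all such genes, and 4 members exceeded it in 1 library alone, against 8.2%. These sets were not matched on level: the median of the highest level of each gene was 13.2 CPM for the 16 members and 36.3 CPM for all 14214 genes.

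**Figure D4:**
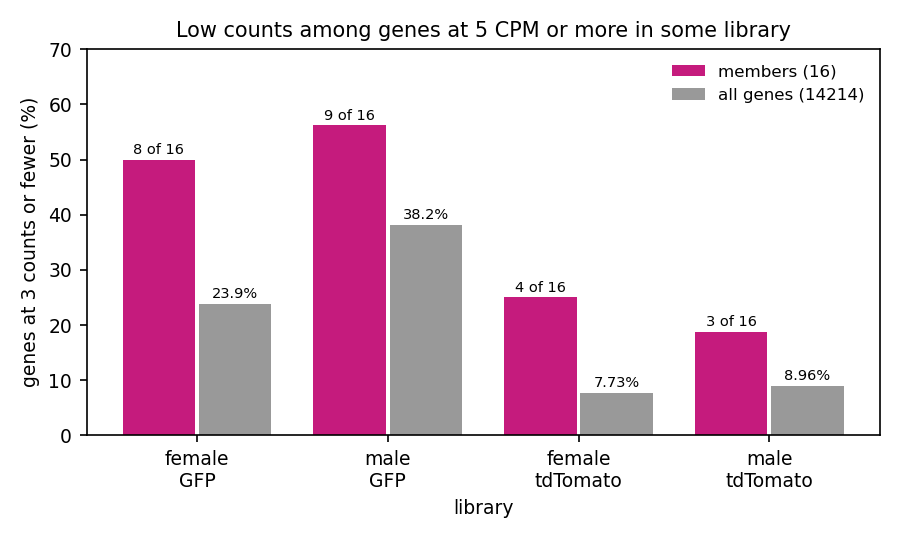
Share of genes with 3 counts or fewer in each library (vertical axis, percent, from 0), among genes at 5 CPM or more in some library, for the 16 members (pink) and all 14214 genes (grey). The shares of members are higher in the GFP libraries (8 and 9 of 16) than in the tdTomato ones (4 and 3 of 16), as are those of all genes.

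Between the sexes, the 4 abundant members had larger folds in GFP than in tdTomato, a difference with no replicate to test it. Male GFP over female GFP was 2.997-fold for Pcdh7 (interval 2.88 to 3.12), 2.80-fold for Cdh6 (2.62 to 2.99), 1.98-fold for Cdh13 (1.85 to 2.12) and 3.72-fold for Fat1 (3.49 to 3.97). Male tdTomato over female tdTomato was 0.579-fold for Pcdh7, 0.908-fold for Cdh6, 0.636-fold for Cdh13 and 1.03-fold for Fat1, whose interval of 0.979 to 1.09 included equal levels. Of the 12 tested members, male GFP was lower than female GFP by 2-fold or more for 3 (Pcdh17, Pcdh19 and Celsr2), against 40.4% of all tested genes, and higher for 6 (Cdh6, Pcdh7, Pcdh9, Pcdh18, Fat1 and Fat4), against 27.9%. In tdTomato, 5 were at least 2-fold lower in the male library (Pcdh9, Pcdh18, Pcdh19, Fat4 and Dchs1), against 21.6%, and none was higher, against 20.6%.

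The X-linked Pcdh19 was lower in the male library of both colours by at least 2-fold. Taken singly, 40.4% of all tested genes were that much lower in male GFP and 21.6% in male tdTomato. The share lower in both colours was not counted. In male GFP its level was at least 102-fold below that of female GFP, and it was 4.67-fold lower in male tdTomato than in female tdTomato (interval 3.49 to 6.33). Its mean log2 ratio of male over female was -4.94 ± 3.91 (SD, n = 2 colours; edgeR adjusted p = 1.0). edgeR called 0 of 15055 genes between the sexes (0%), with an unadjusted p under 0.05 for 262 genes and for none of the members. DESeq2 called 124 genes and none of the members. The sexes were 1 female sample and 1 pool of male samples, so sex and animal cannot be told apart.

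Catenins and their linkers tie cadherins to actin, and their levels ran from 738 CPM to 0. Of 12 listed, 11 were in the table and 9 were tested. None passed in edgeR or DESeq2, and 1 (Afdn) was at least 2-fold higher in GFP in both suspensions, against 5.17% of all tested genes. Vcl (vinculin) measured 496 and 671 CPM in the GFP pair against 631 and 436 CPM in the tdTomato pair. Ctnnb1 (beta-catenin) measured 622 and 128 CPM in the GFP pair against 738 and 656 CPM in the tdTomato pair, male GFP being the low library. Ctnna1 (alpha-E-catenin) was higher in both GFP libraries, at 460 and 410 CPM, than in tdTomato, at 200 and 276 CPM (edgeR adjusted p = 1.0). Afdn (afadin) measured 160 and 299 CPM in the GFP pair against 63.3 and 50.9 CPM in the tdTomato pair (edgeR adjusted p = 0.884). At the low end, Jup (plakoglobin) measured 3.01 and 0.639 CPM in the GFP pair against 5.35 and 10.1 CPM in the tdTomato pair, and Ctnna2 had at most 1 count in any library. The median log2 ratios of the list were -0.25 and 0.62 in the female and male suspensions, against -0.27 and -0.998 over all tested genes.

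Of 11 planar polarity partners, 8 were tested and none passed in edgeR, while DESeq2 called 1 as lower in GFP, Fzd3, against 7.8% of all tested genes. GFP was lower by 2-fold or more in each suspension for 2 of the 8, Fzd3 and Vangl1, against 22.9% of all tested genes. Neither GFP library had a count of this Frizzled receptor, against 2.01 and 18.3 CPM in the tdTomato pair (DESeq2 adjusted p = 0.0254, edgeR adjusted p = 0.577), and it is named after its values were seen. Dvl3, a signal carrier downstream of Frizzled, measured 101 and 59.8 CPM in the GFP pair against 57.1 and 44.9 CPM in the tdTomato pair. Dvl1 measured 24.6 and 1.60 CPM in the GFP pair against 18.9 and 45.4 CPM in the tdTomato pair. Fjx1, the relative of the fly kinase that modifies Fat and Dachsous, measured 45.7 and 0.426 CPM in the GFP pair against 6.42 and 4.46 CPM in the tdTomato pair. The list's medians were 0.30 and -3.83 (log2).

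The Hippo pathway, which in flies acts downstream of Fat, had 9 of 11 genes tested. None passed in edgeR, and DESeq2 called 1 of the 9 as lower in GFP, against 7.8% of all tested genes. This was the scaffold gene Sav1, at 3.56 and 0 CPM in the GFP pair against 62.3 and 17.3 CPM in the tdTomato pair. Its DESeq2 adjusted p was 0.0393 and its edgeR adjusted p 0.823, and it is named after its values were seen. Sav1 was also the 1 of 9 tested Hippo genes with GFP lower by 2-fold or more in each suspension, against 22.9% of all tested genes. Lats2, a kinase of the pathway, measured 65.8 and 361 CPM in the GFP pair against 178 and 86.0 CPM in the tdTomato pair. Wwtr1, the coactivator TAZ, measured 67.8 and 160 CPM in the GFP pair against 165 and 82.6 CPM in the tdTomato pair. Both had male GFP or female tdTomato as their 2 highest libraries, as Pcdh7 and Cdh13 did. Tead1, which TAZ binds on DNA, measured 51.7 and 5.22 CPM in the GFP pair against 63.3 and 68.1 CPM in the tdTomato pair. The list's medians were -1.29 and -3.67.

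Enzymes that mature or cut cadherins were all tested (6 of 6), and none passed in edgeR or DESeq2. GFP was lower by 2-fold or more in each suspension for 2 of the 6, Adam10 and Adam15, against 22.9% of all tested genes. Adam9, a surface protease, measured 136 and 199 CPM in the GFP pair against 86.7 and 39.1 CPM in the tdTomato pair. Adam10, which sheds the outer part of N-cadherin and E-cadherin, measured 17.98 and 0 CPM in the GFP pair against 48.3 and 47.7 CPM in the tdTomato pair. Psen2, a subunit of gamma-secretase, measured 19.8 and 80.5 CPM in the GFP pair against 18.99 and 5.40 CPM in the tdTomato pair. The list's medians were -0.85 and -0.34. Of the 9 desmosome genes, 3 were in the table and 1 was tested, the plaque gene Dsp, at 333 and 138 CPM in the GFP pair against 73.0 and 133 CPM in the tdTomato pair. The desmosomal cadherins Dsg2 and Dsg3 had at most 3 counts in any library.

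**Figure D5:**
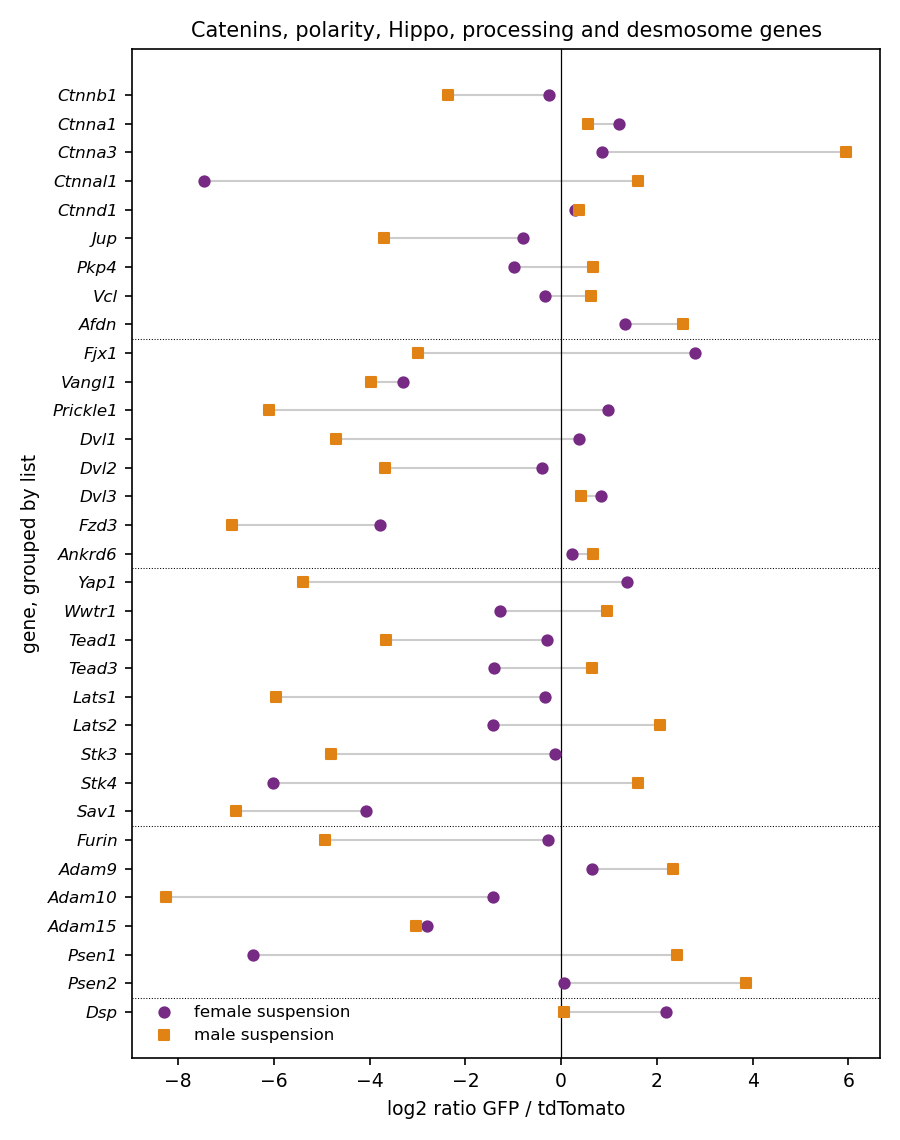
Log2 ratio of GFP over tdTomato (horizontal axis, prior count of 2) in the female suspension (circles) and the male suspension (squares) for the tested catenin, polarity, Hippo, processing and desmosome genes (rows, lists divided by dotted lines). Several genes lie much farther from 0 in one suspension than in the other, such as Adam10 (-1.42 and -8.25), while Afdn lies right of 0 in both.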

How the data were processed

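RNA of sorted cells was primed at its poly(A) tail, copied by template switching, amplified, cut by a transposase and read as pairs, per the labels' protocols. The kit does not mark strand, so reads of the overlapping antisense genes of Pcdh7, Pcdh10, Pcdh19, Cdh8, Fat1, Fat4, Dchs1 and Dchs2 cannot be told apart from theirs, and Cdh12 and Celsr3 overlap genes on their own strand. The tools HISAT2, StringTie and fastp and build GRCm39 are named, per the submitters' processing notes. Which program counted, and with which annotation release, is not given in the sources used here. As values the authors deposited expected counts, estimated reads per gene that were not scaled between libraries, of which 59.4% to 69.1% were whole (tolerance 1e-06).

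Symbols and transcript lengths came from GENCODE M21 by gene identifier (76.4% of genes). Counts were rounded, scaled by TMM, and tested where edgeR's filterByExpr (minimum 10) kept the gene (15055). The test was edgeR 4.0.16's quasi-likelihood test in R 4.3.3 with the suspension as a block, since both colours of a pair came from it, leaving 1 residual degree of freedom. Calls needed a Benjamini-Hochberg p under 0.05. The same design was fitted in limma-voom 3.58.1 and in DESeq2 1.42.0. The labels do not give the pairs as separate animals of a replicated group, so p-values measure the spread between 2 suspensions that differ in sex. The code was tested on simulated data. Folds within a suspension have exact 95% binomial intervals, and against 0 counts a bound at 3 counts per library, both covering counting error only. Log2 ratios used a prior count of 2. The members and lists were chosen with earlier results of these data known. Values per library are given for members at 5 CPM in some library, and statistics for those at a mean of 10 CPM. Cdh11, Pcdh18, Dchs1 and Celsr2, below that mean, were given statistics after their values were seen. Of each partner list the 3 most abundant tested genes are named, and Afdn, Jup, Ctnna2, Fzd3, Vangl1, Sav1, Adam15 and the marker genes singled out were chosen after their values were seen.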

Additional observations from a re-analysis of the deposited data

Results flagged for a closer look

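Pcdh9, Fat4 and Celsr2 were at least 2-fold apart between the colours in opposite directions in the 2 suspensions, with counting intervals that excluded equal levels in both. The log2 ratio of GFP over tdTomato for Pcdh9 was -6.03 in the female suspension and 9.83 in the male suspension. For Fat4 it was -6.96 in the female suspension and 9.03 in the male suspension. For Celsr2 it was 1.59 in the female suspension and -5.00 in the male suspension. Each suspension has 1 library per colour, so the difference between suspensions was not tested.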

How the results depend on the processing

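For the 12 tested members, 127 coefficients of GFP over tdTomato were fitted under the alternatives. Of these, 109 kept their direction and call, 17 changed sign, and 1 (Cdh11 in DESeq2, -9.55) became a call. limma-voom turned Pcdh9 to -1.63 and Fat4 to -3.99 (1.94 and 0.92 in edgeR). Without the replicate block Pcdh19 turned to 0.52 and Celsr2 to 0.19 (-2.71 and -2.20 with it). Fat1 turned to -0.077 with libraries scaled by their totals alone, as did its mean log2 ratio.

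With 1 library left out, and then with no block, the lone library of a colour was assumed to vary like the others, and no gene was called. The fitted coefficients ranged from -0.99 to 0.55 for Cdh6, -1.004 to 0.035 for Cdh13, -1.29 to 0.35 for Pcdh7, -9.11 to 12.73 for Pcdh9, -8.86 to 0.51 for Pcdh17, -10.16 to 2.03 for Pcdh19, -0.78 to 1.17 for Fat1, -10.07 to 8.74 for Fat4 and -8.61 to 1.21 for Celsr2. Their sign changed without female GFP for Cdh6, Cdh13 and Pcdh7, without female tdTomato for Pcdh7 (0.13) and Pcdh19 (2.03), without male GFP for Pcdh9, Pcdh17, Pcdh19, Fat1, Fat4 and Celsr2, and without male tdTomato for Celsr2 (0.68). The coefficients of Cdh11 (-10.44 to -10.13), Pcdh18 (-9.91 to -3.68) and Dchs1 (-8.91 to -4.87) stayed negative. The mean log2 ratios ranged from -1.01 to 0.47 for Cdh6, -1.26 to 0.32 for Pcdh7, -3.01 to 6.82 for Pcdh9, -4.91 to 0.47 for Pcdh17, -5.82 to 1.88 for Pcdh19, -0.81 to 1.09 for Fat1, -4.11 to 6.17 for Fat4 and -4.62 to 1.21 for Celsr2. Without male tdTomato the means of Pcdh9 (-1.11) and Fat4 (-1.82) turned, but their fitted coefficients did not (2.83 and 2.34). The cause was not tested.

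DESeq2 called 1217 genes and 1 member between the colours, and 124 genes between the sexes. Without a filter on low counts edgeR called 2 genes between the sexes. edgeR called 0 genes in the other alternatives, also without the replicate block (1982 at an unadjusted p under 0.05, against 1298 with it), and limma-voom called 0. At a mean of at least 10 CPM, 0 members were 2-fold lower in GFP in both suspensions, and 1 was lower by 2-fold in male than in female GFP, since fewer members were left. The prior count of 0.5 for single members, which moved Cdh11's mean to -8.33, and the count over all members without the filter (4) were added after seeing the data. Of the 34 members, 26 had 3 counts or fewer in each GFP library, against 19 in female tdTomato and 17 in male tdTomato. The share over all genes was not counted for this rule, and the part of depth in it was not tested.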
